A study of Mus musculus with 4 samples.

Results

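H19, Igf2, Cdkn1c, Nnat, Impact, Peg3, Peg10, Mest, Snrpn and Grb10 are imprinted genes that lie outside the Dlk1-Dio3 cluster. They were taken by name, with earlier results of these data known, and all 10 were found among the 55401 genes of the deposited tables. RNA was sequenced from 4 libraries of EB3, an embryonic stem cell line of the mouse, cultured on gelatin with LIF, the cytokine that keeps such cells undifferentiated. One library came from the parental line (genotype WT), 1 from EB3-derived cells with an empty vector (also WT), and 2 from EB3-derived cells with the genotype NUP98-HOXA9 (replicates 1 and 2). NUP98-HOXA9 is a fusion protein of acute myeloid leukaemia that joins repeats of a nuclear pore protein to the homeodomain of HOXA9. The parental and empty-vector libraries together form the wild-type group (n = 2) that is set against the fusion group (n = 2). The labels name no clone, culture or passage for either fusion library, so p-values here measure only the spread between these samples. The sources used here do not give the promoter that drives the fusion. Hoxa9, part of which the fusion carries, had 0 counts in both controls and 190 and 127 CPM in the fusion libraries. The libraries held 19021386 to 21151729 estimated counts.

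An imprinted gene is expressed mainly from the copy inherited from 1 parent, because DNA methylation set in the egg or sperm is kept on that copy. Igf2, Nnat, Impact, Peg3, Peg10, Mest and Snrpn are paternally expressed, and H19, Cdkn1c and Grb10 maternally expressed in most tissues. Many of them set the growth of the embryo and placenta, and their levels are known to vary between embryonic stem cell lines and subclones. Gene-level counts add both parental copies, so neither the active copy nor methylation was measured here. A bulk level also cannot tell apart more cells of a type from more RNA per cell.

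RefSeq promoter windows (250 bases before to 50 after a start site, GRCm38.p6) were matched for 6 of the 10 genes: Grb10, Igf2, Mest, Nnat, Peg3 and Snrpn, with 15 windows in all. Shown here are stretches upstream of start sites of Igf2, the gene with the largest increase, of Nnat, which fell to almost no reads, and of Mest, whose group means were both 128 CPM. Bases inside annotated exons were left out, each sequence runs 5′ to 3′ on the gene's own strand, and capitals mark matches to TGCCGC or its reverse complement GCGGCA, the short methylated motif bound by ZFP57, a zinc-finger protein that keeps imprints.
Igf2 upstream start, chr7:142666817-142667066, minus strand: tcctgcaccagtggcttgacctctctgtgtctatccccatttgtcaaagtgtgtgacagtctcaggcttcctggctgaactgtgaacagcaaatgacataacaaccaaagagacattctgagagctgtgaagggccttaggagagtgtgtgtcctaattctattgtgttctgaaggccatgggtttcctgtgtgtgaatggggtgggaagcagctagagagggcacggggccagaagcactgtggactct
Igf2 middle start, chr7:142661306-142661521, minus strand: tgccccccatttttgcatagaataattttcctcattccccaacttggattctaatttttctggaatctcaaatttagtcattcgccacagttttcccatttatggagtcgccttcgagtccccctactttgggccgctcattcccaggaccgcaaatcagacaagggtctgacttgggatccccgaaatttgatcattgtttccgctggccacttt
Igf2 downstream start, chr7:142657497-142657746, minus strand: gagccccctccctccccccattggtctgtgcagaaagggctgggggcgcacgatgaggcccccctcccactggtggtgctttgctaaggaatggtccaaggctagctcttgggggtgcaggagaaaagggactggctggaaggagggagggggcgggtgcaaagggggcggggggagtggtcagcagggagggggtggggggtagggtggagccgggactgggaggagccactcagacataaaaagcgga
Nnat, chr2:157560008-157560077, plus strand: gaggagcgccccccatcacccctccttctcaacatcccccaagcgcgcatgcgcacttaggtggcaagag
Mest, chr6:30737800-30738049, plus strand: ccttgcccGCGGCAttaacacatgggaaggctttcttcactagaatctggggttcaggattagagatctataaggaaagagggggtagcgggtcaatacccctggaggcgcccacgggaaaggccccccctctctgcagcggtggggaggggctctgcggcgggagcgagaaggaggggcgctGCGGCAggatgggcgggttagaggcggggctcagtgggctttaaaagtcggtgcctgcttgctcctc
The upstream Igf2 stretch held 1 CpG dinucleotide, the middle one 7 and the downstream one 6, while the Mest stretch held 14 CpG and 2 matches to the motif. Another Igf2 window (chr7:142658755-142659054) held 24 CpG and no match, and its upstream bases lie in annotated exons and are not shown. The whole windows of the middle Igf2 start and of Nnat each held 1 match, outside the stretches shown. Over whole 300-base windows, 6 of the 15 held the motif on either strand, against 11.6% of 32817 windows of the same length across the genome. The 15 include 2 nearly identical windows of Mest, and 9 had more CpG than the genome-wide median of 7. A match describes letters in a window and not a bound site.

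Igf2 and Cdkn1c rose and Impact and Nnat fell in the fusion cells, while the other 6 genes did not pass. That is 4 of 10, against 3.42% of all 16511 genes that could be tested (edgeR quasi-likelihood test) at a Benjamini-Hochberg adjusted p of 0.05. Over all genes, 2.83% rose and 0.581% fell. Nnat reached the filter on low counts only through the controls, where it is higher, so its call was partly set by the filter; of the other 9 genes, 2 rose and 1 fell. At an unadjusted p below 0.05 lay 7 of the 10, against 20.1% of all genes, and DESeq2 called 6, against 8.37% of the genes to which it gave an adjusted p. Without regard to a test, both fusion libraries lay above both wild-type libraries for 5 genes (27.1% of all genes) and below them for 3 (24.2%). The other 2, Mest and Peg3, overlapped. The median log2 fold change of the 10 was 0.24, against 0 for all genes tested, and the median of its absolute size was 1.3, against 0.33. Summed over the 10 genes, expression was 1440 and 1180 CPM (the estimated counts as a rate over the library total, with TMM scaling) in the 2 controls and 3230 and 1790 CPM in fusion replicates 1 and 2. Peg10 alone supplied 40.9% and 37.8% of the wild-type sums and 66.4% and 50.5% of the fusion sums.

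**Figure D1:**
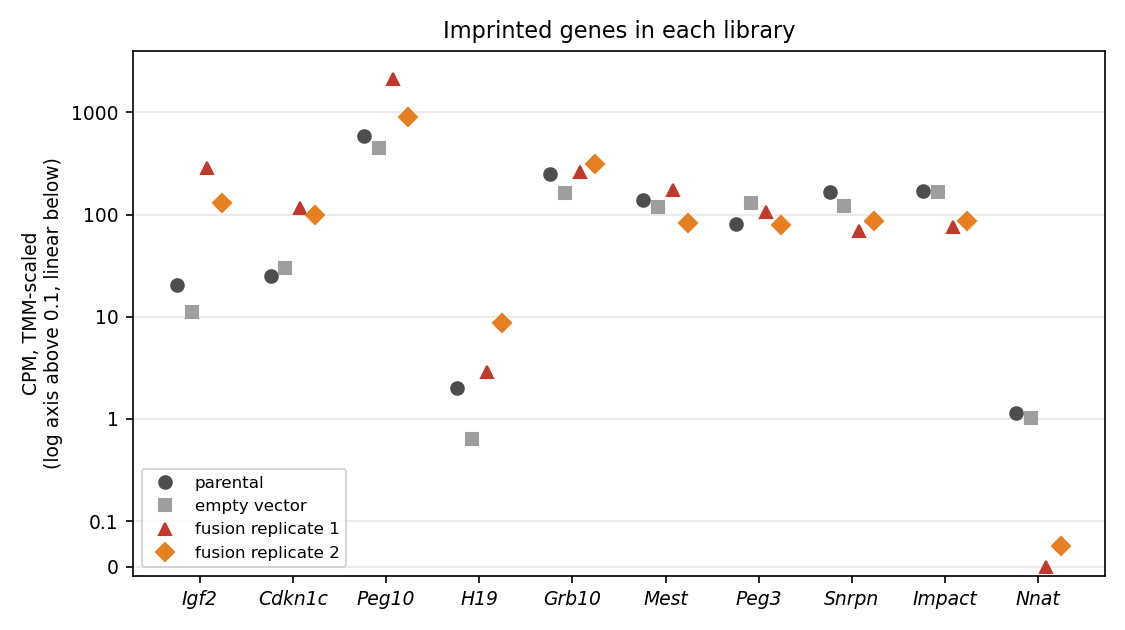
Expression of the 10 imprinted genes in each of the 4 libraries, in TMM-scaled CPM on an axis that is logarithmic above 0.1 and linear below it; each point is 1 library. For Igf2, Cdkn1c, Peg10, H19 and Grb10 both fusion libraries sit above both controls, for Snrpn, Impact and Nnat below them, and for Mest and Peg3 the groups overlap.

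Igf2 (chromosome 7, 142650766 to 142666816, minus strand) encodes a growth factor of the embryo that signals through the IGF1 and insulin receptors. It stood at 20.6 CPM in the parental and 11.2 CPM in the empty-vector library, against 283 and 129 CPM in fusion replicates 1 and 2. The fusion libraries are both far above the controls, and they differ from each other by 2.19-fold. The mean went from 15.9 ± 6.63 to 206 ± 109 CPM (SD, n = 2 each), a 13-fold difference (log2 fold change 3.69 ± 0.46 SE, adjusted p = 0.014, edgeR). The call rests on having both controls: without the parental library the adjusted p was 0.0717 and without the empty-vector library 0.0996 (edgeR), with log2 fold changes of 4.19 and 3.3. With no filter on low counts it was 0.138. Igf2os, an antisense transcript that overlaps Igf2, rose as well, from 0.313 and 0.159 to 5.11 and 3.65 CPM (log2 fold change 4.18 ± 0.58 SE, adjusted p = 0.0201, edgeR). Without fusion replicate 1 its log2 fold change was 3.91, and the call was lost. With 6 and 3 counts in the controls, Igf2os reached the filter only through the fusion libraries, so its call is no separate support for Igf2. Its counts were 1.52% and 1.42% of those of Igf2 in the controls and 1.81% and 2.83% in the fusion libraries. The kit was stranded, but the sources used here do not give the strand setting of the counting, so reads of the 2 genes may not be separated. A further model, Gm49394, shares exons with Igf2 on the same strand and held 0 to 103.4 estimated counts per library, against 211 to 5639 for Igf2.

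H19, a long noncoding RNA next to Igf2 (chromosome 7, 142575529 to 142578143, minus strand), draws on the same enhancers, with Igf2 and H19 normally read from opposite parental copies. It stood at 2.03 and 0.636 CPM in the controls against 2.86 and 8.62 CPM in the fusion libraries. The groups do not overlap, but fusion replicate 1 lies close to the parental line, and the log2 fold change, 2.1 ± 0.73 (SE), missed the threshold (adjusted p = 0.171, edgeR). With no filter on low counts its adjusted p was 0.0193 (edgeR). The fusion libraries did not rank alike for the 2 genes. Igf2 was higher in fusion replicate 1 than in replicate 2, and H19 higher in replicate 2 than in replicate 1. Among the controls both genes were higher in the parental line. H19 counts were 9.87% and 5.69% of Igf2 counts in the controls, 1.01% in fusion replicate 1 and 6.69% in replicate 2.

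Grb10 (chromosome 11, 11930508 to 12038683, minus strand) encodes an adaptor that restrains signalling from the insulin and IGF1 receptors. It stood at 248 and 161 CPM in the controls and 260 and 312 CPM in the fusion libraries. Its lowest fusion value is close to the parental value, and the log2 fold change, 0.49 ± 0.24 (SE), missed the threshold (adjusted p = 0.328, edgeR). Ddc, its neighbour, which encodes dopa decarboxylase, stood at 13 and 11.8 against 29.3 and 18.6 CPM (log2 fold change 0.95 ± 0.3 SE, adjusted p = 0.143, edgeR). Of 15 genes that act with Igf2 in IGF signalling (Igf1, receptors, their substrates and the adaptors Grb10 and Grb14, binding proteins and IGF2 mRNA-binding proteins; Igf2 itself is not counted), 0 passed with edgeR, 2 had an unadjusted p below 0.05 (20.1% of all genes), and the median log2 fold change was 0.05. Those 2 were Igf2bp2, an RNA-binding protein of Igf2 mRNA, at 231 and 170 against 59.1 and 120 CPM, and Igfbp3, a secreted IGF-binding protein, at 69.6 and 28.7 against 16 and 19.2 CPM. DESeq2 called these same 2 genes lower. Igf2r, the receptor that clears IGF2 and is itself imprinted, stood at 142 CPM in both controls against 103 and 188 CPM in the fusion libraries.

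Cdkn1c (chromosome 7, 143458339 to 143461050, minus strand) encodes the cyclin-dependent kinase inhibitor p57, a brake on the cell cycle and on growth. It stood at 25.1 and 30.3 CPM in the controls against 116 and 98.5 CPM in the fusion libraries. Each pair of libraries is close together and the groups are well apart. The mean went from 27.7 ± 3.74 to 107 ± 12.3 CPM (SD, n = 2 each), a 3.87-fold difference (log2 fold change 1.95 ± 0.21 SE, adjusted p = 0.00883, edgeR). It passed with any 1 of the 4 libraries left out, and its adjusted p against the empty vector alone was 0.0509 (edgeR). Cdkn1c was the only one of 7 CDK inhibitor genes that passed in either direction, against 3.42% of all genes. Cdkn1a (p21) stood at 42.1 and 96.9 against 87 and 66.1 CPM, and Cdkn1b (p27) at 44.1 and 38.5 against 18.1 and 34.9 CPM. Gm44732, antisense to Cdkn1c, held 0.972% to 1.87% as many counts as Cdkn1c in the 4 libraries.

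Of the 8 tested genes of its domain, Cdkn1c included, Cdkn1c was the 1 that passed, against 3.42% of all genes. At an unadjusted p below 0.05 (edgeR) lay 3 of the 8, Cdkn1c, Osbpl5 and Phlda2, against 20.1% of all genes. Kcnq1ot1, the paternally expressed noncoding RNA that silences the domain on the paternal copy, stood at 7.81 and 6.26 CPM in the controls and 5.36 and 7.39 CPM in the fusion libraries, which overlap. Phlda2, a maternally expressed gene that restrains placental growth, stood at 68.9 and 47.5 against 43 and 33.4 CPM (log2 fold change -0.61 ± 0.25 SE, adjusted p = 0.241, edgeR). Osbpl5 stood at 4.95 and 4.88 against 8.67 and 8.48 CPM (log2 fold change 0.8 ± 0.32 SE, adjusted p = 0.229, edgeR). Ascl2, Cd81, Slc22a18 and Tssc4 overlapped between the groups. The 5 Mb around Cdkn1c held 113 other tested genes with a median log2 fold change of -0.03, and the 2 Mb around it 47 with a median of 0.17.

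Peg10 (chromosome 6, 4747306 to 4760517, plus strand) derives from a retrotransposon and is needed for the placenta. Per length it ranked first among the 10 in the parental and both fusion libraries, and second to Impact (112.12 TPM) in the empty-vector library, at 121.45 and 99.22 TPM (the authors' transcript rate, which corrects for length) in the controls and 485.17 and 211.13 TPM in the fusion libraries. In CPM it stood at 590 and 448 against 2140 and 903, so both fusion libraries are above the controls, with replicate 1 at 2.37 times replicate 2. The log2 fold change, 1.55 ± 0.39 (SE), missed the threshold (adjusted p = 0.0807, edgeR). DESeq2 called it (adjusted p = 0.00127), and so did edgeR without fusion replicate 2 (log2 2.05, adjusted p = 0.0183); without replicate 1 the value was 0.79. Sgce, which shares the Peg10 promoter region and encodes epsilon-sarcoglycan, stood at 7.19 and 5.57 against 14.1 and 9.03 CPM (log2 fold change 0.86 ± 0.35 SE, adjusted p = 0.239, edgeR). Ppp1r9a, a maternally expressed neighbour, stood at 51.7 and 34.9 against 92.1 and 71.3 CPM (log2 fold change 0.92 ± 0.25 SE, adjusted p = 0.102, edgeR). Calcr, the calcitonin receptor, lay the other way, at 2.14 and 2.55 against 0.301 and 1.05 CPM (log2 fold change -1.77 ± 0.63 SE, adjusted p = 0.184, edgeR). Both fusion libraries lay above both controls for 3 of the 4 tested genes of this domain (27.1% of all genes) and below them for Calcr (24.2%), which reached the filter only through the controls. With edgeR 0 of the 4 passed; all 4 had an unadjusted p below 0.05 (20.1% of all genes), and DESeq2 called Peg10 and Ppp1r9a.

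Mest (chromosome 6, 30723547 to 30748465, plus strand), a hydrolase-fold gene of mesoderm and growth, and Peg3 (chromosome 7, 6703892 to 6730431, minus strand), a zinc-finger factor, had the smallest fold changes. Mest stood at 138 and 118 CPM in the controls against 172 and 82.9 CPM in the fusion libraries. The fusion values lie on either side of the controls and differ by 2.08-fold, with a log2 fold change of -0.01 (SE 0.33, adjusted p = 0.995, edgeR) that turned to 0.43 without fusion replicate 2 and to 0.05 with library totals as scaling. Copg2, which overlaps Mest on the opposite strand, stood at 65.8 and 46.7 against 43.1 and 69.3 CPM. In the fusion libraries Mest was high where Copg2 was low and the reverse. Peg3 stood at 81.1 and 129 against 107 and 79.5 CPM (log2 fold change -0.17 ± 0.27 SE, adjusted p = 0.787, edgeR; 0.18 without the empty-vector library and 0.03 without fusion replicate 2). In the Peg3 domain, Zfp264 rose from 0.521 and 0.424 to 5.36 and 10.5 CPM (log2 fold change 4.05 ± 0.54 SE, adjusted p = 0.0176, edgeR), although it reached the filter only through the fusion libraries (10 and 8 counts in the controls). It is annotated as a transcribed pseudogene, and reads of related zinc-finger genes may be shared with it. Usp29, which starts beside Peg3 on the opposite strand, stood at 3.7 and 4.93 against 2.51 and 6.38 CPM, and Zim1 at 2.24 and 3.71 against 2.76 and 3.19 CPM. Both overlapped between the groups.

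Snrpn (chromosome 7, 59982495 to 60140219, minus strand) encodes SmN, a protein of the spliceosome, in the region tied to Prader-Willi and Angelman syndromes in humans. It stood at 166 and 120 CPM in the controls against 69.7 and 86.2 CPM in the fusion libraries. The groups do not overlap, and the log2 fold change, -0.88 ± 0.22 (SE), missed the threshold (adjusted p = 0.0836, edgeR), though DESeq2 called it (adjusted p = 0.0146) and so did edgeR without the empty-vector library (adjusted p = 0.0388) and with no filter (adjusted p = 0.0021). Snurf, read from the same transcript as Snrpn, stood at 20.9 and 14.2 against 8.42 and 11.5 CPM (log2 fold change -0.82 ± 0.32 SE, adjusted p = 0.223, edgeR). Snhg14, the long host transcript of the region's small nucleolar RNAs, stood at 45.2 and 43.2 against 15.1 and 27.2 CPM (log2 fold change -1.06 ± 0.3 SE, adjusted p = 0.111, edgeR). Snurf and the model Gm38393 share exons or span with Snrpn on the same strand, so their counts are not independent. Further along the domain, Magel2 stood at 6.67 and 6.47 against 2.66 and 3.97 CPM (log2 fold change -0.99 ± 0.39 SE, adjusted p = 0.223, edgeR). Atp10a, a phospholipid-transporting ATPase at the far end, stood at 31.7 and 15 against 1.2 and 7.84 CPM (log2 fold change -2.36 ± 0.78 SE, adjusted p = 0.152, edgeR; 0.0332 without fusion replicate 2). For these 5 genes fusion replicate 1 was the lowest library.

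Genes of the Snrpn domain lay on both sides. Of its 9 tested genes, 6 had both fusion libraries below both controls (24.2% of all genes) and 2 had them above (27.1%), with Snrpn and Snurf counted separately although they share a transcript. The median log2 fold change was -0.82. The 2 above were Peg12, at 0.938 and 0.69 against 2.41 and 3.15 CPM (log2 fold change 1.76 ± 0.48 SE, adjusted p = 0.0994, edgeR), and Ndn (necdin, a growth suppressor of neurons), at 8.8 and 7.37 against 14.4 and 9.3 CPM (log2 fold change 0.55 ± 0.34 SE, adjusted p = 0.432, edgeR). Mkrn3 overlapped. Ube3a, the ubiquitin ligase of Angelman syndrome, was below at 124 and 116 against 105 and 109 CPM. With edgeR 0 of the 9 passed, 6 had an unadjusted p below 0.05 (20.1% of all genes), and DESeq2 called Snrpn and Snhg14.

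Nnat (chromosome 2, 157560078 to 157562522, plus strand) encodes neuronatin, a small membrane protein of the endoplasmic reticulum best known from neurons. It had 22 and 19 counts in the controls and 0 and 1 in the fusion libraries, or 1.15 and 1.01 CPM against 0 and 0.0456 CPM. Over the groups that is 41 counts against 1, so the wild-type level was 45.1 times the fusion level (95% exact binomial interval 7.66 to 1830, counting error only), and the test passed (adjusted p = 0.0332, edgeR). The call was lost with any 1 of the 4 libraries left out (adjusted p from 0.055 to 0.177, edgeR), and the gene reached the test only through its control counts. Nnat lies in an intron of Blcap on the opposite strand, and Blcap stood at 31.4 and 34.7 against 33.3 and 27.4 CPM, overlapping between the groups.

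Impact (chromosome 18, 12955852 to 12992950, plus strand) encodes an inhibitor of the stress kinase GCN2. It stood at 170 and 165 CPM in the controls against 76.2 and 87 CPM in the fusion libraries. Both pairs are tight and well apart. The mean went from 167 ± 3.98 to 81.6 ± 7.67 CPM (SD, n = 2 each), 0.488 times the wild-type level (log2 fold change -1.04 ± 0.17 SE, adjusted p = 0.0319, edgeR). The adjusted p was 0.0505 without the parental library, 0.136 without fusion replicate 1 and 0.0537 without replicate 2 (edgeR), with log2 fold changes from -1.13 to -0.95. Around Impact, the median log2 fold change was 0.07 for the 38 other tested genes within 5 Mb and 0.16 for the 17 within 2 Mb.

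**Figure D2:**
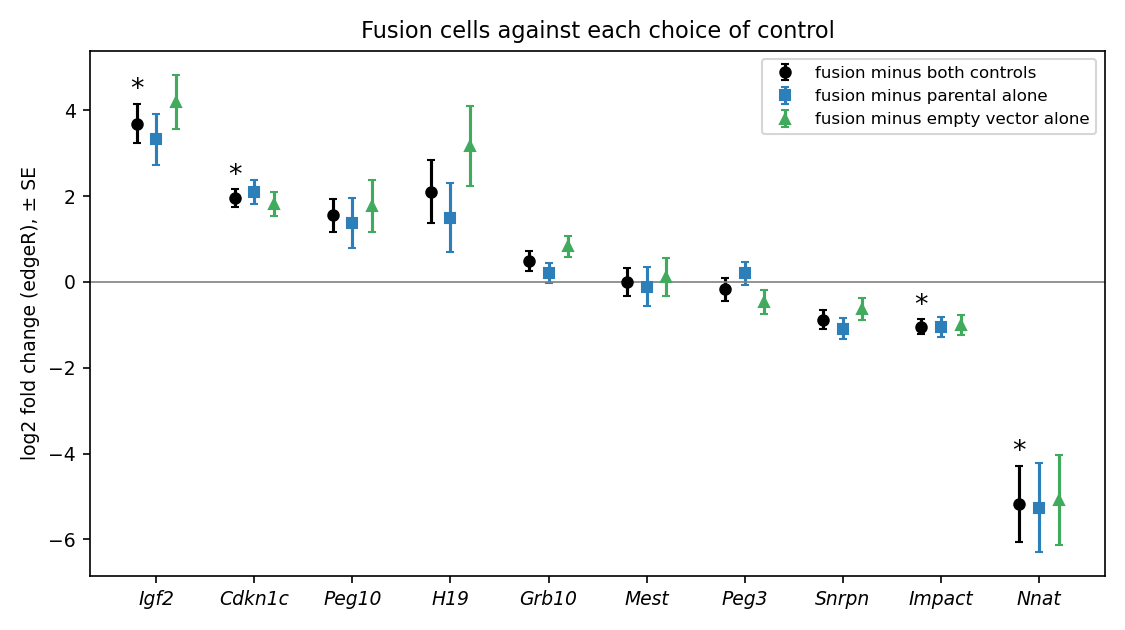
Log2 fold change of each imprinted gene in the fusion libraries, with the standard error, against both controls (circles), the parental library alone (squares) and the empty vector alone (triangles); asterisks mark an adjusted p under 0.05 against both controls. All genes but Peg3 and Mest keep their sign against either control, and the Nnat value rests on 1 count in the fusion libraries.

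The controls were also taken apart, in a model of 3 groups where only the fusion libraries give the spread and each lone control is assumed to vary like them. In it, 0.63% of all genes passed against the parental line and 0.497% against the empty vector. Cdkn1c passed against the parental line (log2 fold change 2.1 ± 0.28 SE, adjusted p = 0.0332, edgeR) and had a log2 fold change of 1.82 (SE 0.28, adjusted p = 0.0509) against the empty vector. Igf2 had log2 fold changes of 3.32 and 4.2 (adjusted p = 0.0983 and 0.0796, edgeR). For Impact they were -1.06 and -1.01 (adjusted p = 0.0922 and 0.108, edgeR). These contrasts share the fusion libraries, so they are not separate evidence. H19 had log2 fold changes of 1.5 and 3.16 and Grb10 of 0.21 and 0.83 against the parental line and the empty vector.

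The libraries of each group were also set against each other. With 1 library a side there is no test. Between empty vector and parental, H19 was the 1 of 10 genes at least 2-fold apart (3.19-fold, higher in the parental line), against 9.95% of all genes. Between the fusion libraries, 4 of 10 were at least 2-fold apart, against 10.2% of all genes. Igf2 (2.19-fold), Peg10 (2.37-fold) and Mest (2.08-fold) were higher in replicate 1, and H19 (3.02-fold) was higher in replicate 2. Cdkn1c (1.18-fold) and Impact (1.14-fold) differed least there.

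Compared by length-scaled abundance, the wild-type order ran from Peg10 (mean 110 TPM), Snrpn (107 TPM), Impact (105 TPM) and Mest (77.2 TPM) through Grb10 (60.8 TPM), Cdkn1c (26.4 TPM), Peg3 (20.1 TPM) and Igf2 (8.97 TPM) to Nnat (1.64 TPM) and H19 (1.1 TPM). The first 3 lie within the spread between the 2 controls and cannot be ordered. In the fusion libraries Peg10 stayed first (348 TPM), and Igf2 (122 TPM) and Cdkn1c (119 TPM) came next, again too close to order. Snrpn (63 TPM) and Impact (54.7 TPM) stood sixth and seventh, and Nnat (0.11 TPM) last.

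The deposited tables also give an effective length per gene and library, the mean over annotated isoforms weighted by their estimated abundance, less 74 bases. It moves when isoform use moves, or when few reads are shared out among many isoforms. Snrpn had 1858 bases in every library, which is its shorter transcript of 1932 bases less 74, so no abundance was assigned to its other transcript of 2076 bases. Peg10 ranged only from 6508 to 6522 bases. Igf2, with 9 transcripts of 376 to 4722 bases, had 2732 and 2059 bases in the controls and 2458 and 2657 bases in the fusion libraries, so the controls differed more than the groups. Cdkn1c was shorter in both fusion libraries (1359 and 1340 bases) than in both controls (1496 and 1441 bases). H19 was longer in both (1754 and 2047 against 1669 and 1594 bases). Peg3 was 8534 bases in fusion replicate 1 and 7334 to 7426 bases in the other libraries. For Nnat the 312 bases of fusion replicate 2 rest on 1 count. No test was made of these lengths.

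**Figure D3:**
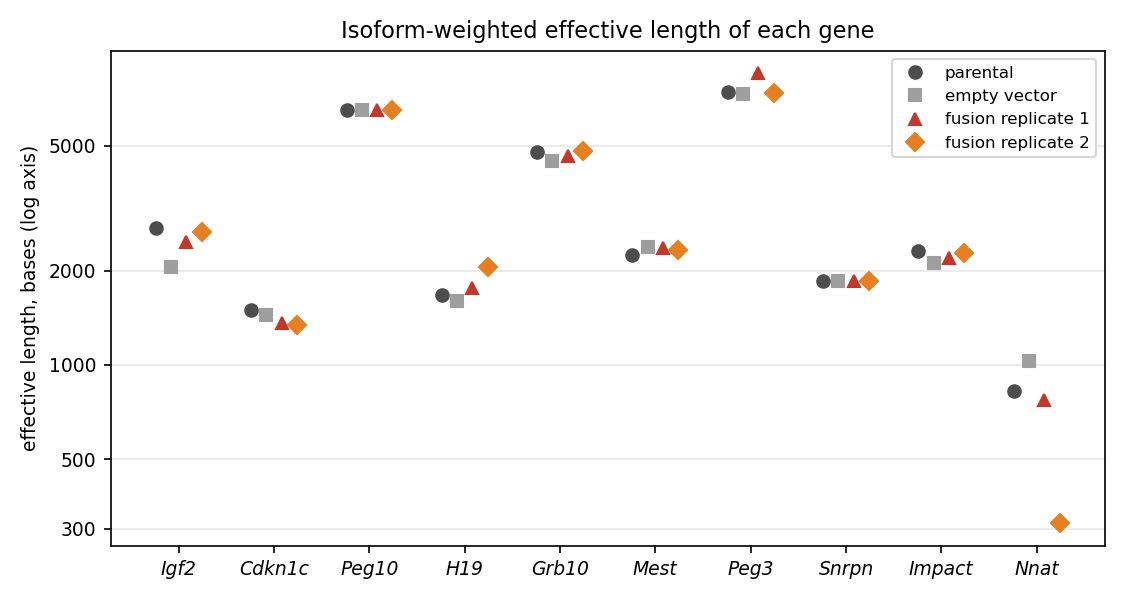
Effective length of each imprinted gene in each library, in bases on a log axis; each point is 1 library. Snrpn is at 1858 bases in all 4 libraries, Cdkn1c is shorter and H19 longer in both fusion libraries, and the low Nnat point at 312 bases rests on 1 count.

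Across a wider list of 60 imprinted genes outside Dlk1-Dio3, 59 were in the tables and 48 could be tested. Of these, Igf2, Igf2os, Cdkn1c and Zfp264 rose and Impact and Nnat fell, and the median log2 fold change was 0.02. The 2 that passed among the 38 tested genes beyond the 10, Igf2os and Zfp264, both reached the filter only through the fusion libraries. For comparison, 2.83% of all genes rose and 0.581% fell. By parental origin, 3 of 26 paternally expressed genes rose and 2 fell, with a median of -0.05. Among these calls Igf2os, Zfp264 and Nnat reached the filter through 1 group only. Of the 21 paternally expressed genes that did not reach it that way, 2 passed. Of 22 maternally expressed genes 1 rose and 0 fell, with a median of 0.06. At an unadjusted p below 0.05 (edgeR) lay 13 of the 26 and 7 of the 22, against 20.1% of all genes. DESeq2 called 8 of the paternally expressed genes and, of the maternally expressed, Cdkn1c and Ppp1r9a, against 8.37% of the genes to which it gave an adjusted p. The share of maternally expressed genes past the threshold is near that of all genes. Airn, the noncoding RNA antisense to Igf2r, was low throughout, at 0.208 and 0 against 1.05 and 0.866 CPM (log2 fold change 3.12 ± 0.94 SE, adjusted p = 0.125, edgeR). By distance between log2 CPM profiles centred over the 4 libraries, the nearest 2 of 47 other tested imprinted genes to Igf2 were Igf2os (0.5) and Airn (1.34), where the median over the 47 was 3.87. Nearest to Cdkn1c were Peg12 (0.7) and Peg10 (1.0; median 2.04), to Impact Magel2 (0.26) and Snrpn (0.35; median 1.3), and to Nnat Calcr (1.62) and Atp10a (1.68; median 3.38). Igf2os and Airn reached the filter only through the fusion libraries, where Igf2 is high. Calcr, like Nnat, reached it only through the controls. The nearness of Igf2os and Airn to Igf2 and of Calcr to Nnat was thus partly set by the filter. Reads of Igf2os and Igf2 may also not be separated. With 4 libraries such nearness is a description only. In the Dlk1-Dio3 cluster the maternally expressed noncoding RNA Meg3 fell from 297 and 346 to 80.4 and 69.4 CPM (log2 fold change -2.1 ± 0.19 SE, adjusted p = 0.00844, edgeR).

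**Figure D4:**
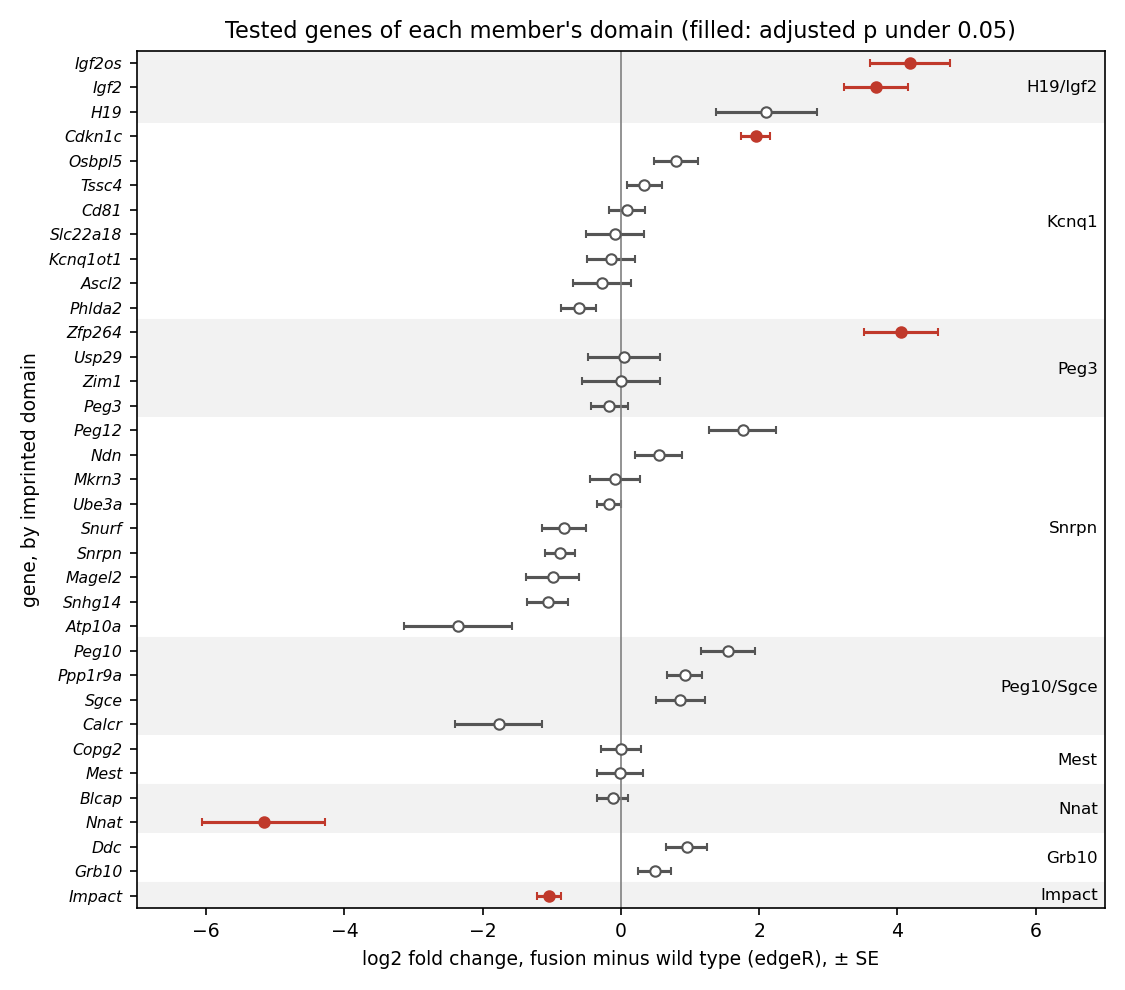
Log2 fold change between fusion and wild-type libraries, with the standard error, for every tested gene of the domains that hold the 10 imprinted genes; filled points passed the test. Genes of the H19/Igf2 domain lie to the right, of which Igf2os reached the filter only through the fusion libraries. Those of the Snrpn domain lie on both sides with 7 of 9 to the left, Snrpn and Snurf counted separately. Of all 16511 genes tested, 8307 lie to the left. Mest is at -0.01.

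Of 19 genes that set or keep imprints, Dnmt3b, a methyltransferase that adds new methylation, was the only one past the test, and it fell from 405 and 517 to 172 and 231 CPM (log2 fold change -1.19 ± 0.22 SE, adjusted p = 0.0395, edgeR; 0.176 with fusion replicate 1 left out, 0.0503 with replicate 2 left out, 0.0571 with the empty vector left out and 0.0528 with library totals as scaling). A count of 1 in 19 is near the share of all genes past the threshold (3.42%). At an unadjusted p below 0.05 (edgeR) lay 7 of the 19, against 20.1% of all genes. They were Dnmt3b, Dnmt3l, Dppa3, Ehmt1 and Rif1 (lower) and Tet2 and Tet3 (higher). DESeq2 called 3 of the 19, against 8.37% of the genes to which it gave an adjusted p. The list had a median of -0.15. Zfp57 stood at 261 and 459 CPM in the controls and 642 and 462 CPM in the fusion libraries (log2 fold change 0.62 ± 0.3 SE, adjusted p = 0.312, edgeR). Dppa3, which protects imprints in the early embryo, stood at 38.8 and 23.8 against 0.602 and 7.98 CPM (log2 fold change -2.86 ± 0.91 SE, adjusted p = 0.143, edgeR; 0.0136 without fusion replicate 2). Tet2 and Tet3, which oxidise methylated cytosine, stood at 74.2 and 144 against 272 and 226 CPM and at 6.72 and 5.99 against 14.5 and 13.4 CPM (adjusted p = 0.091 and 0.0849, edgeR), and DESeq2 called both.

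Markers of another cell type moved with the groups. Of 11 extraembryonic endoderm markers, 9 were tested and passed as higher, against 2.83% of all genes. Foxa2, Gata6, Sox7 and Sox17 reached the filter only through the fusion libraries, so their calls were partly set by it; the other 5 were Col4a1, Dab2, Gata4, Lama1 and Pdgfra. The sum of the list went from 87.3 and 74.2 CPM in the controls to 737 and 675 CPM in the fusion libraries. Afp and Ttr, which mark the mature visceral endoderm, held 0 to 5 and 0 to 16 counts per library. Of 7 tested fibroblast markers Fbln1 rose, and Col1a1, Col1a2 and Col3a1 did not pass. Both fusion libraries lay above both controls for 5 of the 7 (27.1% of all genes) and below them for 1 (24.2%). Fbln1, Col1a1 and Col3a1 had an unadjusted p below 0.05 with edgeR (20.1% of all genes). The fibroblast list summed to 113 and 89.4 CPM in the controls against 211 and 194 CPM in the fusion libraries. Of 6 tested trophectoderm markers 0 passed with edgeR (3 had an unadjusted p below 0.05, against 20.1% of all genes, and DESeq2 called Cdx2). Of 6 neural markers Sox1 rose and 4 had both fusion libraries below both controls (24.2% of all genes). At an unadjusted p below 0.05 (edgeR) lay 5 of the 6, against 20.1% of all genes. DESeq2 called Sox1, which was higher, and Map2, Nes and Pax6, which were lower, against 8.37% of the genes to which it gave an adjusted p. The neural list summed to 176 and 205 CPM in the controls against 126 and 145 CPM in the fusion libraries. Of 4 tested mesoderm markers 0 passed with edgeR (2 at an unadjusted p below 0.05, against 20.1% of all genes, and DESeq2 called T). Stem cell markers summed to 4670 and 4930 CPM in the controls and 5280 and 5260 CPM in the fusion libraries. With edgeR 0 of 8 passed (3 at an unadjusted p below 0.05, against 20.1% of all genes, and DESeq2 called Klf4 and Nanog). The part of the endoderm, fibroblast and neural markers' differences in the levels of Igf2, Cdkn1c, Nnat or the other imprinted genes was not tested.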

How the data were processed

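A stranded mRNA kit was used, per the labels' protocols. Each library has 1 deposited gene table in which the authors give an expected count (an estimated count, 9.16% to 10.18% of values not whole), TPM, FPKM and lengths, per the file headers. The submitters' processing notes list STAR 2.7.10a, RSEM 1.3.3, DESeq2 1.36.0 and GRCm38/mm10. The sources used here do not give the annotation release, the strand setting or filters. The deposited effective length, a value of another kind than expression, was read as written. Symbols and coordinates came from GENCODE vM21 (55141 of 55401 identifiers matched).

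Expected counts were rounded and tested in R 4.3.3 with edgeR 4.0.16 (TMM, filterByExpr at a minimum count of 10, robust quasi-likelihood fit, 2 fusion against 2 wild-type libraries, adjustment over 16511 genes). Common dispersion gave a coefficient of biological variation of 25.6%; 2 residual degrees of freedom remained. The SE is the absolute log2 fold change divided by the square root of F. The test was also run on simulated counts drawn from the means, library sizes and dispersions of these libraries, and its outcome is not given here. Deposited TPM compared genes with each other, and deposited FPKM was an alternative for that order.

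The members, lists and tests were chosen with earlier results of these data known. All 10 members were named, then genes of the wider lists past the threshold (up to 8 a list), tested neighbours in each domain and, for members past the threshold, the 2 nearest imprinted genes. Igf2r, Igf2bp2, Igfbp3, Cdkn1a, Cdkn1b, Zfp57, Dppa3, Dnmt3l, Ehmt1, Rif1, Tet2 and Tet3 were named after their values were seen. Other settings tried were scaling by library totals or by DESeq2's size factors, no filter, a floor of 1 CPM in 2 libraries, a non-robust fit, DESeq2 1.42.0, limma 3.58.1 on log2(TPM + 1), each control alone, each library left out, a prior count of 0.5 or a floor of 5 CPM for pairs, and a window of 2 Mb. Summing overlapping models (Igf2 with Gm49394; Snrpn with Snurf and Gm38393) was added after seeing the data.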

Additional observations from a re-analysis of the deposited data

How the results depend on the processing

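Igf2, Cdkn1c, H19, Peg10, Grb10, Snrpn, Impact and Nnat kept their direction under every alternative run. Peg3 turned to 0.2 against the parental line alone and ranged from -0.48 to 0.18 with a library left out. Mest turned to 0.05 with library totals and 0.11 against the empty vector, and ranged from -0.63 to 0.43 with a library left out. The number of all genes past the threshold was 564, and it was 1946 with no filter, 1388 by DESeq2, 104 against the parental line, 82 against the empty vector and 163 to 552 with a library left out, lowest without fusion replicate 1. Members that rose numbered 2. Members that fell numbered 2, but 1 with 1 CPM in 2 libraries (Nnat was then not tested). Fewer members passed in total against each control alone and with any 1 library left out, where a group holds 1 library. DESeq2 called 6 of the 10. Of the 60 imprinted genes, 4 rose and 2 fell; 7 and 5 with no filter, 1 and 0 against the parental line, 0 and 0 against the empty vector (edgeR; 11 and 5 at an unadjusted p below 0.05), 3 to 5 and 0 to 2 with a library left out. The count that fell was 1 with 1 CPM in 2 libraries and 4 by DESeq2. With no filter the members called were Cdkn1c and H19 (higher) and Impact, Nnat and Snrpn (lower), and the adjusted p of Igf2 was 0.138; the cause was not tested, nor was it for the other changes. Within 2 Mb instead of 5 Mb, the median of the genes around Cdkn1c turned from -0.03 to 0.17. Around Snrpn it went from -0.09 (35 genes within 5 Mb) to -0.82 (9 genes within 2 Mb). Those 9 are not separate from Snrpn. They include Snurf and Gm38393, which share exons or span with it, and Snhg14, Ube3a and Atp10a of its domain. Merging overlapping models left the counts of members at 2 and 2. With a floor of 5 CPM, 615 genes were 2-fold apart between the controls (0 members, since H19 is below the floor) and 751 between the fusion libraries, in place of 1643 and 1677. No paired analysis was possible because the parental and empty-vector libraries carry no replicate numbers. With 2 libraries a group, the depth of H19 and Nnat (12 to 189 and 0 to 22 counts) limits both.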
